A study of Homo sapiens with 9 samples.

Results

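BRD1 (bromodomain containing 1, also known as BRPF2) is a scaffold protein that joins histone acetyltransferases of the MYST family to ING and MEAF6 subunits, and its bromodomain and PHD fingers read histone tails. Complexes of this kind acetylate histone H3 at the start of genes, and BRD1 is studied in the brain because variants near the gene have been associated with schizophrenia and bipolar disorder. BRD1-S and BRD1-L are the short and the long isoform of the protein. The comparison described here asks which transcripts differed in level between HEK293T cells that stably expressed BRD1-S and untreated HEK293T cells. HEK293T is a line from human embryonic kidney that carries SV40 large T antigen and expresses a number of neuronal genes.

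The comparison used 2 of the 9 Affymetrix U219 arrays of the series, 1 of BRD1-S cells and 1 of untreated cells. The BRD1-S cells carried a His6/V5 tagged BRD1-S on a construct described as stable or episomal, and whether the line came from 1 clone is not given in the sources used here. The untreated cells carried no construct. An array of cells with an empty construct was not analysed here, so BRD1-S, the tag, the vector and the selection and passage of the line cannot be told apart. All samples were the same cell line in the same medium, and the total RNA of each was hybridised once.

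To show how far each gene varied among cells without the construct, 3 further arrays of HEK293T cells treated with mock siRNA were set beside the untreated array. They are called mock Qiagen, mock Dharmacon 1 and mock Dharmacon 2 after the kit and the replicate number, and wherever 3 mock values are given they stand in that order. Levels are log2 intensities, averaged over the probe sets of a gene, for 18239 genes. A gene was called higher in BRD1-S cells when its level exceeded the highest of the 4 arrays without the construct by over 1.5-fold, and lower when it lay under the lowest of the 4 by over 1.5-fold. With 1 array a side there is no replicate check of the BRD1-S cells and no test. The values below, apart from the closing observations, describe these 5 arrays, and their number limits the precision. The remaining arrays of the series were of HEK293T cells that stably expressed BRD1-L and of HEK293T cells treated with BRD1 siRNA. They enter only in the closing observations.

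By this rule, 26 of 18239 genes (0.143%) were higher in BRD1-S cells and 12 genes (0.0658%) were lower. The higher genes were led by TNMD, NELL2, BRD1 itself and ANXA1. The lower genes were led by VAMP8, LXN, CALCB and SPINT2. RNA came from whole cultures, in which fewer cells expressing a gene and less RNA of it per cell cannot be told apart. Counts against the untreated array alone were much larger: 177 genes (0.97%) were over 1.5-fold higher in BRD1-S cells and 30 genes (0.164%) over 1.5-fold lower. Among the 207 genes past 1.5-fold against untreated cells, 18.4% were also that far beyond every mock array.

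BRD1 was measured by 3 probe sets, and only one of them showed the construct. Probe set 11748646_a_at read 11.11 in BRD1-S cells, against 6.33 in untreated cells and 6.51, 6.52 and 6.56 on the mock arrays, a 27.5-fold difference from untreated cells. Probe set 11731092_a_at read 8.72 in BRD1-S cells, against 8.63 in untreated cells and 8.83, 8.80 and 8.74 on the mock arrays. Probe set 11731093_s_at read 7.97 in BRD1-S cells, against 7.88 in untreated cells and 8.13, 8.04 and 7.95 on the mock arrays. So on 2 of the 3 probe sets BRD1-S cells lay inside the range of the cells without the construct. Where the probe sets lie along the BRD1 transcript is not given in the sources used here. Averaged over the 3 probe sets, the BRD1 level was 9.27 in BRD1-S cells, against 7.61 in untreated cells and 7.82, 7.79 and 7.75 on the mock arrays, which is 1.66 above untreated cells (3.15-fold) and 1.45 beyond the range. With the median over the 3 probe sets the difference from untreated cells was 0.85.

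**Figure D1:**
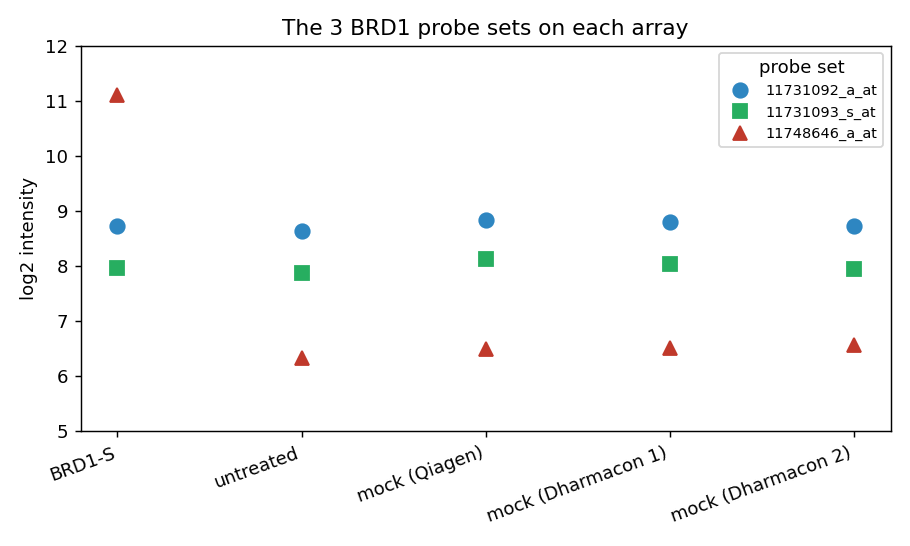
Log2 intensity (vertical axis) of the 3 BRD1 probe sets on the BRD1-S array, the untreated array and the 3 mock arrays, 1 point per probe set and array. Probe set 11748646_a_at stands at 11.11 in BRD1-S cells and at 6.33 to 6.56 on the other arrays, while the other probe sets lie at the same height throughout.

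Most remaining genes of the related scaffolds, the MYST acetyltransferases and the ING and MEAF6 subunits stayed near their levels in untreated cells. Of 17 measured genes of these families, not all of them partners of BRD1, BRD1 was the single gene called. By any amount, 8 of the 17, BRD1 among them, stood above all 4 arrays (47.1%) and none below. Among all genes 16.9% stood above and 18.1% below. After BRD1, the largest of these distances was 0.15, for ING3. The paralogous scaffold BRPF1 read 8.94 in BRD1-S cells, against 8.82 in untreated cells and 8.87, 8.89 and 8.71 on the mock arrays. The catalytic subunit KAT7 (HBO1) read 8.23 in BRD1-S cells, against 8.17 in untreated cells and 8.22, 8.23 and 8.08 on the mock arrays. ING4, a reader subunit of KAT7 complexes, was 0.53 higher in BRD1-S cells than in untreated cells but lay inside the range of the mock arrays. None of the 25 measured genes for proteins reported to co-precipitate with BRD1-S was called either. The paper did not tell CHD3, CHD4 and CHD5 apart, and each of them is counted here. The median difference of the list was −0.01 from untreated cells and 0.11 from the mean of the mock arrays. Medians of the mock arrays against untreated cells were −0.12 to −0.05. Over all genes only 0.143% were called higher and 0.0658% lower.

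Housekeeping genes were not called, although some of them varied among the cells without the construct. GAPDH read 13.41 in BRD1-S cells, against 13.45 in untreated cells and 13.50, 13.49 and 13.46 on the mock arrays. None of 6 measured housekeeping genes was called, where 0.143% of all genes were called higher and 0.0658% lower. HPRT1, an enzyme of purine salvage, read 12.39 in BRD1-S cells, against 12.36 in untreated cells and 11.79, 11.78 and 12.48 on the mock arrays. Of 8 markers of HEK293T cells, VIM was the brightest at 13.33 in BRD1-S cells, against 13.14 in untreated cells and 12.91, 12.98 and 13.20 on the mock arrays, and NEFM was the 1 marker called. All 10 measured markers of blood, endothelial and liver cells averaged under the median of all values, 5.47, over the 5 arrays and none was called. Over all probe sets the BRD1-S array correlated with the untreated array at r = 0.997, and the SD of the difference over genes was 0.18. The SDs of the mock arrays against the same untreated array were 0.26, 0.27 and 0.20, so the BRD1-S array was closer to the untreated one than any mock array was.

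Among the higher genes, TNMD (tenomodulin), a membrane glycoprotein best known from tendon, lay farthest beyond the range. It read 6.05 in BRD1-S cells, against 3.86 in untreated cells and 3.91, 3.59 and 3.91 on the mock arrays. That is 2.18 above untreated cells, from a single probe set. Its levels on the 4 arrays without the construct were like those of markers that other tissues express, such as ALB (3.68) and VWF (3.81) in untreated cells, so no fold is given and the order of TNMD among the higher genes is not certain. NELL2, a secreted glycoprotein with EGF-like repeats that is abundant in neurons, read 7.26 in BRD1-S cells, against 5.56 in untreated cells and 5.28, 5.39 and 5.47 on the mock arrays. All 3 NELL2 probe sets passed the rule one by one. ANXA1 (annexin A1), a calcium-dependent phospholipid binding protein, read 6.75 in BRD1-S cells, against 4.94 in untreated cells and 4.70, 4.96 and 5.41 on the mock arrays. Of the 5 ANXA1 probe sets 4 passed the rule, and the fifth read 3.32 in BRD1-S cells, against 3.59 in untreated cells, near the floor of the array.

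**Figure D2:**
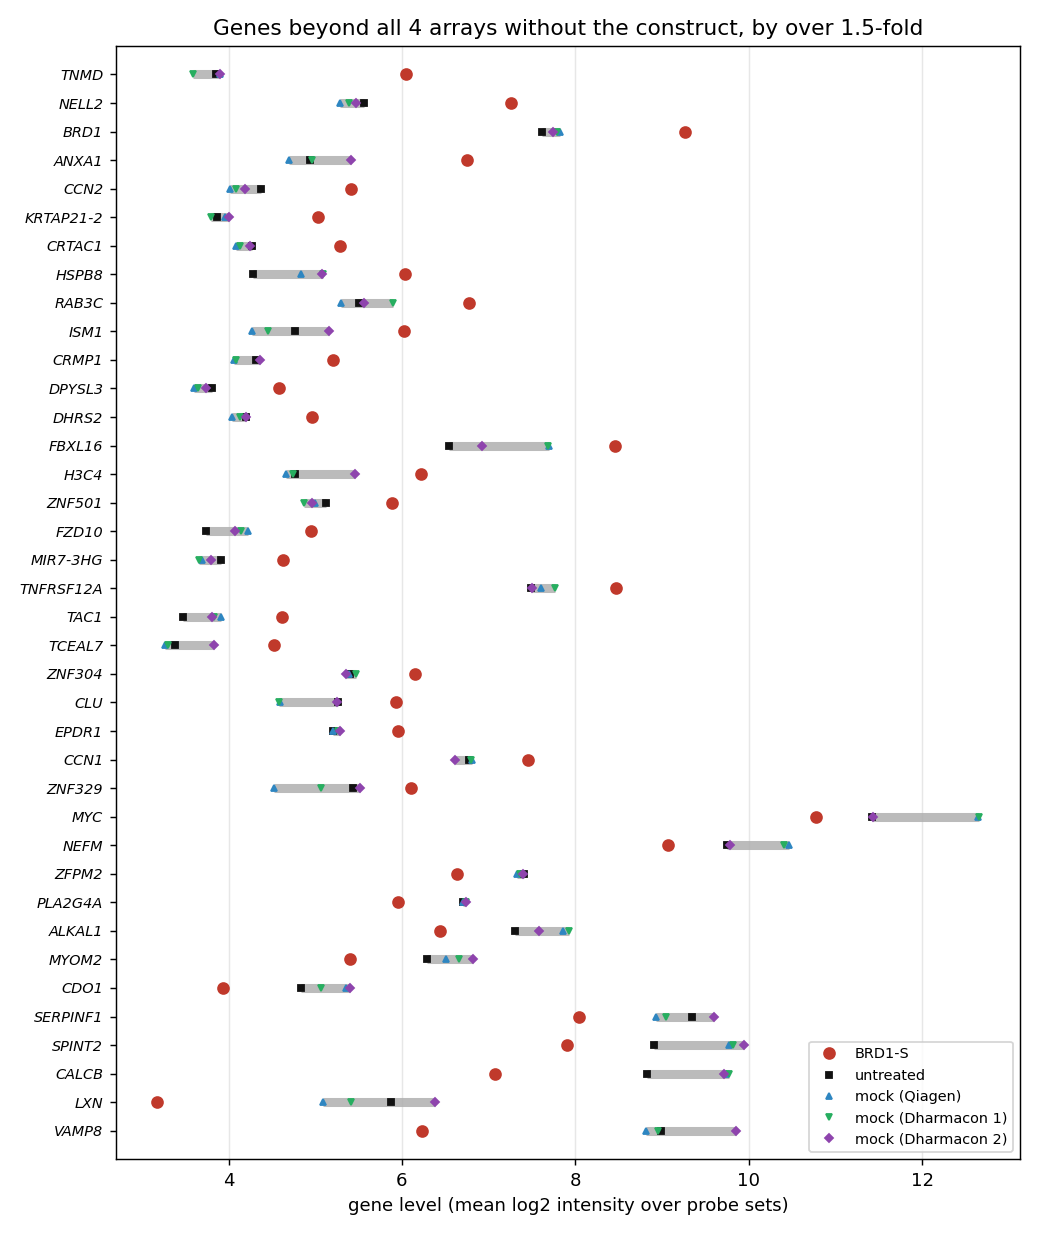
Gene level (mean log2 intensity over probe sets, horizontal axis) of the 38 called genes on the BRD1-S array, the untreated array and the 3 mock arrays, with a grey bar over the range of the 4 arrays without the construct. The BRD1-S point lies right of the bar for 26 genes, farthest for TNMD, and left of it for 12 genes, farthest for VAMP8.

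The matricellular genes CCN2 (CTGF) and CCN1 (CYR61) are textbook targets of the YAP and TEAD transcription factors and of serum response. CCN2 read 5.41 in BRD1-S cells, against 4.37 in untreated cells and 4.02, 4.09 and 4.19 on the mock arrays. CCN1 read 7.46 in BRD1-S cells, against 6.77 in untreated cells and 6.80, 6.79 and 6.61 on the mock arrays. Both were above all 4 arrays, CCN2 by 1.04 and CCN1 by 0.65, and CCN1 was no longer called after median centring or quantile normalization of the arrays. Their fellow YAP target ANKRD1 read 4.08 in BRD1-S cells, against 3.55 in untreated cells and 3.55 to 3.66 on the mock arrays, which was outside the range but short of 1.5-fold.

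HSPB8, a small heat shock protein that works with BAG3 in clearing misfolded proteins, read 6.04 in BRD1-S cells, against 4.28 in untreated cells and 4.83, 5.09 and 5.07 on the mock arrays. The difference was 1.76 from untreated cells and 0.95 beyond the range. Of the 22 measured heat shock genes it was the 1 gene called, where 0.143% of all genes were called higher and 0.0658% lower. BAG3 itself read 9.95 in BRD1-S cells, against 9.96 in untreated cells and 9.41, 9.35 and 9.83 on the mock arrays. The inducible HSPA1A went the other way against the untreated array: it read 9.07 in BRD1-S cells, against 10.37 in untreated cells and 9.09, 9.09 and 9.46 on the mock arrays. Since the Qiagen and Dharmacon 1 mock arrays stood within 0.02 of BRD1-S cells, the untreated array was the one apart and HSPA1A was not called.

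Upstream sequences are shown for CCN2 and HSPB8 because each holds the textbook motif of a factor known to act on it. They are the 250 bases before the RefSeq start of the gene on GRCh38.p14, written 5′ to 3′ on the strand of the gene, CCN2 at chr6:131951373-131951622 on the minus strand and HSPB8 at chr12:119178681-119178930 on the plus strand. Capitals mark GGAATG, the letters bound by TEAD factors, in CCN2 and GAANNTTC, the core of the heat shock element, in HSPB8.
CCN2: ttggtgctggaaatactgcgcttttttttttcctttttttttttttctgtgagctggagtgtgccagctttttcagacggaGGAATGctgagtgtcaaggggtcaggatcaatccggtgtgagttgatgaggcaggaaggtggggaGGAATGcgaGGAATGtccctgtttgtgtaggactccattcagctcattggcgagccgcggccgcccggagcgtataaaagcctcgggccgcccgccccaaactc
HSPB8: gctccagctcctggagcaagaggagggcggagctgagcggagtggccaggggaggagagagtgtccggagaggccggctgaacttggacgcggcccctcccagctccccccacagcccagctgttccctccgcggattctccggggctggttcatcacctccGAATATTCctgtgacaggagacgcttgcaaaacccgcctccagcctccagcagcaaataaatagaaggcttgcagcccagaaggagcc

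Both strands were searched in these windows for 5 motifs, and overlapping matches were counted. GGAATG occurred 3 times upstream of CCN2, which 26 of 27305 RefSeq promoters (0.0952%) reached, and at least once in 11.9% of promoters. RefSeq promoters were at hand for 22 of the 38 called genes. Of these 22, GGAATG was in CCN2 and CDO1, GAANNTTC was in HSPB8 (5.85% of all promoters), CACGTG was in TAC1 (6.49%), CCAAT was in 7 (33%) and the AP-1 letters TGANTCA were in 0 (6.6%). A match describes letters in the sequence and is not a measured binding site.

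Genes with known roles in neurons made up a further group. CRMP1, a collapsin response mediator protein of axon guidance, read 5.21 in BRD1-S cells, against 4.32 in untreated cells and 4.07, 4.09 and 4.37 on the mock arrays. Its relative DPYSL3 (CRMP4) read 4.59 in BRD1-S cells, against 3.81 in untreated cells and 3.60, 3.65 and 3.74 on the mock arrays. TAC1, the precursor of substance P, read 4.62 in BRD1-S cells, against 3.48 in untreated cells and 3.92, 3.83 and 3.81 on the mock arrays. These 3 genes stayed under the median of all values on every array. RAB3C, a small GTPase of secretory vesicles that was not on the list of neuronal markers, was brighter, with 6.78 in BRD1-S cells, against 5.50 in untreated cells and 5.30, 5.90 and 5.56 on the mock arrays.

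Of 32 measured neuronal markers, 3 were called higher and 1, NEFM, lower, beside 0.143% and 0.0658% of all genes. Only 10 of the 32 averaged at or above the median of all values over the 5 arrays. By any amount, 17 of the 32 (53.1%) stood above all 4 arrays and 3 below, beside 16.9% above and 18.1% below among all 18239 genes. Some of the 17 were small differences at low levels, such as DCX, which read 3.76 in BRD1-S cells, 0.04 beyond the range. TUBB3, the neuronal beta tubulin, read 9.01 in BRD1-S cells, against 8.08 in untreated cells and 7.46, 7.47 and 8.76 on the mock arrays. It was 0.93 above untreated cells and 0.26 above the Dharmacon 2 array. MAP2, a microtubule-associated protein of dendrites, read 4.09 in BRD1-S cells, against 3.44 in untreated cells and 3.43 to 3.60 on the mock arrays. CHGA (chromogranin A) of dense core vesicles read 6.02 in BRD1-S cells, against 5.38 in untreated cells and 4.57 to 5.70 on the mock arrays. The median of the list was 0.12 above untreated cells, and those of the mock arrays were 0.04 to 0.07 above.

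The neurofilament genes did not all share that direction. NEFM, the medium subunit, read 9.07 in BRD1-S cells, against 9.75 in untreated cells and 10.47, 10.40 and 9.78 on the mock arrays, and both of its probe sets were beyond the range. NEFL, the light subunit, read 9.99 in BRD1-S cells, against 10.02 in untreated cells and 10.63, 10.59 and 10.07 on the mock arrays. INA (internexin) read 9.26 in BRD1-S cells, against 8.81 in untreated cells and 8.26, 8.37 and 9.02 on the mock arrays. Of these 3 filament genes, then, NEFM was beyond the range by 0.68, NEFL was 0.03 under the lowest array and INA was 0.24 above the highest.

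Immediate early genes and their relatives formed the list with the highest median, 0.19 above untreated cells, where the mock arrays had medians of 0.04 to 0.09. Of its 34 measured members, 2 were called higher (CCN2, and CCN1, whose call was lost under both other scalings) and 1, MYC, lower. Among all genes 0.143% were called higher and 0.0658% lower. By any amount, 16 members (47.1%) stood above all 4 arrays, beside 16.9% of all genes. FOS, a subunit of AP-1, read 4.90 in BRD1-S cells, against 4.32 in untreated cells and 4.25, 4.13 and 4.39 on the mock arrays, which was 0.51 beyond the range. EGR1 read 5.31 in BRD1-S cells, against 4.73 in untreated cells and 4.57, 4.46 and 5.16 on the mock arrays. MYC, the growth-promoting transcription factor, read 10.77 in BRD1-S cells, against 11.42 in untreated cells and 12.64, 12.66 and 11.44 on the mock arrays. MYC was thus lowest in BRD1-S cells, while the mock arrays differed among themselves by more than BRD1-S cells differed from untreated cells.

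Among the replication-dependent histone genes, H3C4, a gene for histone H3, read 6.22 in BRD1-S cells, against 4.77 in untreated cells and 4.66, 4.74 and 5.46 on the mock arrays. It was the 1 gene called of 52 measured histone genes, where 0.143% of all genes were called higher and 0.0658% lower. Further histone genes were higher against untreated cells but nearer to the Dharmacon 2 array. H2AC6 read 6.67 in BRD1-S cells, against 5.30 in untreated cells and 4.58, 4.92 and 6.11 on the mock arrays. H1-2, a linker histone, read 9.28 in BRD1-S cells, against 8.45 in untreated cells and 8.58, 8.54 and 8.87 on the mock arrays. By any amount, 21 of the 52 genes (40.4%) stood above all 4 arrays and 7 below, beside 16.9% and 18.1% of all genes. Only 7 of the 52 averaged at or above the median of all values over the 5 arrays. Histone genes of one class have near-identical sequences, so signal from one member can reach the probes of another.

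The other higher genes were of varied kinds. TNFRSF12A (Fn14), the receptor of the cytokine TWEAK, read 8.47 in BRD1-S cells, against 7.49 in untreated cells and 7.61, 7.76 and 7.50 on the mock arrays. FBXL16, an F-box protein, read 8.46 in BRD1-S cells, against 6.54 in untreated cells and 7.70, 7.69 and 6.93 on the mock arrays. FBXL16 had the widest range of these genes among cells without the construct, so its difference of 1.92 from untreated cells left 0.77 beyond the range. ISM1 (isthmin), a secreted protein, read 6.02 in BRD1-S cells, against 4.77 in untreated cells and 4.27, 4.46 and 5.15 on the mock arrays. CLU (clusterin), an extracellular chaperone, read 5.94 in BRD1-S cells, against 5.26 in untreated cells and 4.59, 4.59 and 5.25 on the mock arrays. Of the 2 CLU probe sets, one read 8.24 in BRD1-S cells and 6.94 in untreated cells, and the other read 3.63 and 3.59 in those cells. EPDR1, an ependymin-related protein, was 0.75 above untreated cells and 0.66 beyond the range. With the median over its 3 probe sets the difference was 0.21, and EPDR1 was no longer called.

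FZD10, a receptor of WNT ligands, read 4.95 in BRD1-S cells, against 3.74 in untreated cells and 4.22, 4.15 and 4.07 on the mock arrays. FZD10 was the 1 gene called of 44 measured WNT pathway genes, where 0.143% of all genes were called higher and 0.0658% lower. The zinc finger genes ZNF501, ZNF304 and ZNF329 were 0.76, 0.68 and 0.59 beyond the range. CRTAC1, an extracellular matrix protein of cartilage, was 1.01 beyond the range, and KRTAP21-2, a hair keratin-associated protein, 1.03. DHRS2, a short-chain dehydrogenase, was 0.77 beyond it, MIR7-3HG, the host transcript of a miR-7 gene, 0.72, and TCEAL7, a relative of the elongation factor TCEA, 0.70. These last 5 genes, like CCN2, CRMP1, DPYSL3, TAC1 and FZD10, stayed under the median of all values, 5.47, on all 5 arrays. The array values came without detection calls, so at these low levels presence of the transcript in either kind of cell was not established.

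The lower genes were brighter: of the 12, CDO1 alone stayed under 5.47 on all 5 arrays. The rule itself leads that way, since a gene near the floor of the array can be called higher but hardly lower. VAMP8, a SNARE protein of endosomal and secretory vesicle fusion, was lowest against untreated cells. It read 6.23 in BRD1-S cells, against 8.99 in untreated cells and 8.81, 8.95 and 9.85 on the mock arrays. The difference from untreated cells was −2.76 (a ratio of 0.148), and BRD1-S cells lay 2.58 under the lowest of the 4 arrays. No other gene among 31 measured SNARE genes was called, where 0.143% of all genes were called higher and 0.0658% lower. VAMP3, an endosomal relative, read 9.55 in BRD1-S cells, against 9.46 in untreated cells and 9.44, 9.58 and 9.38 on the mock arrays. The highest difference in the list was that of STX3, a plasma membrane syntaxin, which read 7.74 in BRD1-S cells, against 7.19 in untreated cells and 6.83, 6.97 and 7.23 on the mock arrays.

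LXN (latexin), an inhibitor of carboxypeptidases, read 3.18 in BRD1-S cells, against 5.87 in untreated cells and 5.08, 5.41 and 6.38 on the mock arrays. Both probe sets passed the rule, and the BRD1-S level was close to the lowest value of the whole table, 2.80. CALCB, the precursor of beta-CGRP, read 7.07 in BRD1-S cells, against 8.83 in untreated cells and 9.73, 9.77 and 9.72 on the mock arrays. All 3 CALCB probe sets passed the rule. Here the untreated cells lay between BRD1-S cells and the mock arrays, so the difference was −1.76 from untreated cells and −2.67 from the mean of the mock arrays.

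A Kunitz inhibitor and a serpin were also among the lower genes. SPINT2, a Kunitz inhibitor of membrane serine proteases, read 7.90 in BRD1-S cells, against 8.91 in untreated cells and 9.78, 9.82 and 9.95 on the mock arrays. SERPINF1, the secreted serpin PEDF, which does not inhibit proteases, read 8.04 in BRD1-S cells, against 9.35 in untreated cells and 8.94, 9.04 and 9.60 on the mock arrays. All 5 SERPINF1 probe sets and both SPINT2 probe sets passed the rule.

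The remaining lower genes differed by less. PLA2G4A, the cytosolic phospholipase that releases arachidonic acid, read 5.95 in BRD1-S cells, against 6.70 in untreated cells and 6.71, 6.74 and 6.74 on the mock arrays. ZFPM2 (FOG2), a cofactor of GATA factors, read 6.63 in BRD1-S cells, against 7.41 in untreated cells and 7.32, 7.36 and 7.40 on the mock arrays. For both genes the 4 arrays without the construct lay close together, and the BRD1-S array lay under all of them. ALKAL1, a ligand of the receptor kinase ALK, was 0.86 under untreated cells, which were the lowest of the 4. MYOM2 (myomesin 2) of the sarcomere was 0.89 under and CDO1 (cysteine dioxygenase), which oxidises cysteine, 0.89 under.

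Probe sets of one gene were compared for the called genes measured by several. Among the 14 higher genes with several probe sets, every probe set passed the rule in 2, NELL2 and KRTAP21-2, and in 11 every probe set was at least outside the range on the same side. The 3 exceptions were BRD1, ANXA1 and FZD10. Among the 6 lower genes with several probe sets, every probe set passed the rule in 5, and ZFPM2 had 1 of 2 past it.

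**Figure D3:**
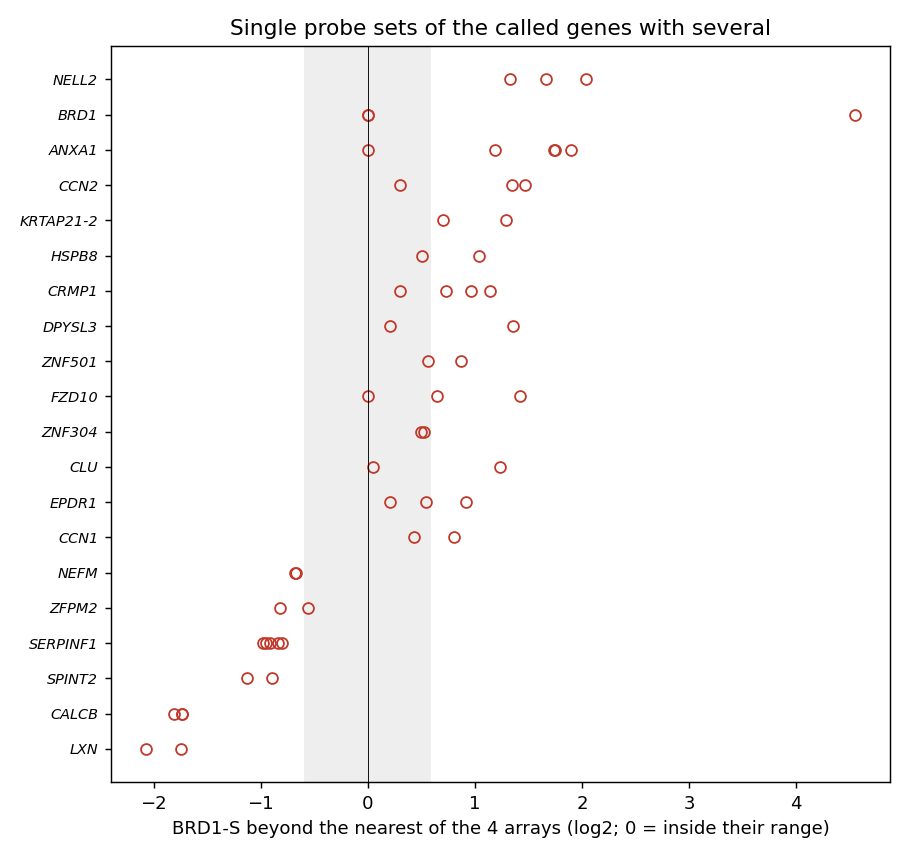
Distance of BRD1-S cells beyond the nearest of the 4 arrays without the construct (log2, horizontal axis; 0 means inside their range), 1 open circle per probe set, for the 20 called genes with several probe sets. The shaded band covers distances under 1.5-fold, and 1 BRD1 probe set stands at 4.55 while the others of that gene stand at 0.

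Most genes past 1.5-fold against untreated cells were not that far from every mock array. Of the 177 genes over 1.5-fold higher than in untreated cells, 151 were not called, 57 of them because BRD1-S cells lay inside the range and 94 because they lay outside it by less than 1.5-fold. Dharmacon 2 was within 1.5-fold of BRD1-S cells, or above them, for 141 of the 151 genes, Dharmacon 1 for 85 and Qiagen for 72. BMP2, a ligand of the TGF-beta family, had the highest difference from untreated cells of all genes. It read 8.96 in BRD1-S cells, against 5.97 in untreated cells and 8.57, 8.68 and 6.45 on the mock arrays. Of its difference of 2.99 only 0.28 lay beyond the range. CD24, a surface glycoprotein, read 7.22 in BRD1-S cells, against 5.23 in untreated cells and 5.79, 5.57 and 7.94 on the mock arrays. RPRM (reprimo), a p53-induced cell cycle inhibitor, read 7.18 in BRD1-S cells, against 5.28 in untreated cells and 7.25, 7.60 and 6.41 on the mock arrays. In each of these genes the untreated array was the lowest, and at least 1 mock array came within 1.5-fold of BRD1-S cells or passed them.

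KRTAP19-1, MNS1, PHLDA2, APOE and LGALS1 completed the 8 highest differences that were not called, from 1.44 for LGALS1 (galectin 1) to 2.56 for KRTAP19-1. APOE, the lipoprotein ligand, read 7.62 in BRD1-S cells, against 6.05 in untreated cells and 5.08, 5.07 and 7.12 on the mock arrays, so it was high in BRD1-S cells and on the Dharmacon 2 array. PHLDA2, an imprinted growth regulator, showed the same order, with 7.43 in BRD1-S cells, against 5.53 in untreated cells and 5.51, 5.30 and 6.98 on the mock arrays. On the lower side, HSPA1A, RUNX1T1, RAB32, MATK, ZNF804A, BRINP3, SMCHD1 and SNORD89 were 0.67 to 1.30 under untreated cells without being called. SMCHD1, a chromatin protein of X inactivation, read 8.25 in BRD1-S cells, against 8.94 in untreated cells and 8.80, 8.68 and 8.72 on the mock arrays, which is 0.43 beyond the range.

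**Figure D4:**
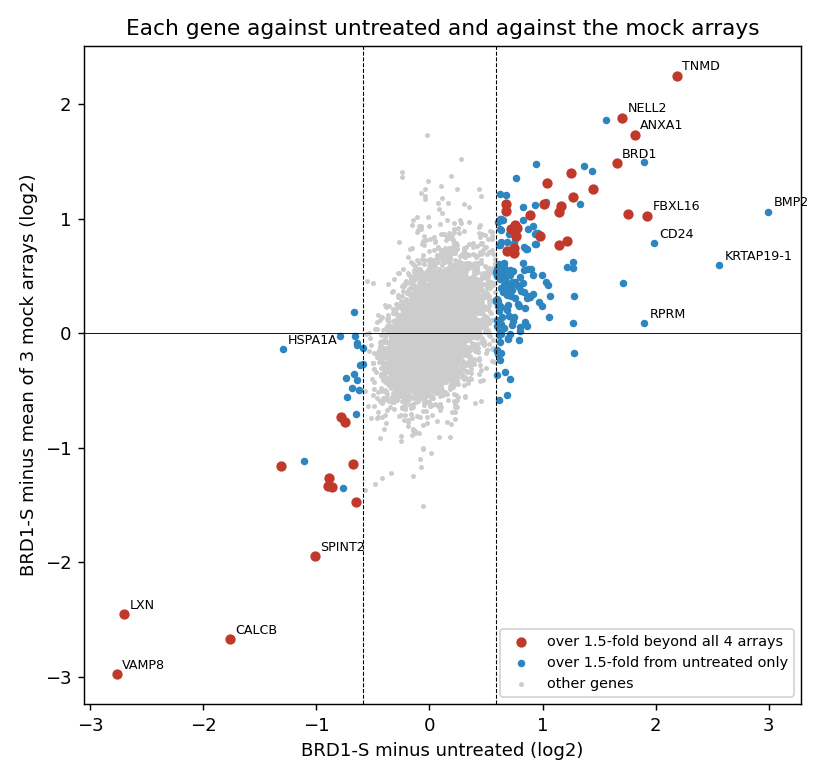
Difference of BRD1-S cells from untreated cells (log2, horizontal axis) and from the mean of the 3 mock arrays (log2, vertical axis) for each of 18239 genes, with dashed lines at 1.5-fold. Red points are the 38 called genes. Blue points are the 169 that passed 1.5-fold against untreated cells but were not that far beyond every mock array. Some of these also passed 1.5-fold against the mock mean, such as BMP2 at 2.99 against untreated cells and 1.06 against the mock mean.

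The untreated array was itself apart from the mock arrays to a like extent. Against the range of the 3 mock arrays alone, BRD1-S cells were over 1.5-fold above it for 37 genes (0.203%) and under it for 34 (0.186%). Untreated cells were over 1.5-fold above the same range for 6 genes (0.0329%) and under it for 61 (0.334%). Leaving out the Dharmacon 2 array from the range of 4 arrays gave 90 higher and 14 lower genes in BRD1-S cells, so that array alone kept 64 genes from being called higher.

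Close to the threshold, ZNF329 was called at 0.59 beyond the range and NTS, the neurotensin precursor, was just short of it at 0.58. On the lower side MYC was called at 0.65 and ESRP2, an epithelial splicing factor, was short of it at 0.57.

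The 33 gene lists set beside the calls held 15 of the 38 called genes, and 10 lists held at least 1. Medians of BRD1-S cells minus untreated cells over the lists ran between −0.12 and 0.19, beside 0.00 over all genes. No gene was called among 56 measured ribosomal protein genes, 34 DNA replication and G1/S genes, 32 mitosis genes and 31 genes of oxidative phosphorylation. The same held for 30 genes of glycolysis and the hypoxia response, 27 of sterol and fatty acid synthesis and 24 p53 targets. It also held for 30 genes of the stress response of the endoplasmic reticulum and 33 interferon or class I presentation genes. Over all genes 0.143% were called higher and 0.0658% lower, so lists of this size would mostly hold no call. The lowest median was that of 28 ABC and amino acid transporters, of which 12 (42.9%) stood below all 4 arrays by any amount, beside 18.1% of all genes, and none was called. SLC7A3, a cationic amino acid transporter, had the lowest difference among them and read 5.72 in BRD1-S cells, against 6.22 in untreated cells and 5.87, 6.10 and 6.39 on the mock arrays.

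The lists of annexins, S100 proteins and galectins and of BMP and TGF-beta genes held more differences from untreated cells than calls. Of 33 measured annexin, S100 and galectin genes, 5 were over 1.5-fold above untreated cells, beside 0.97% of all genes, and ANXA1 was the 1 called higher, beside 0.143%. ANXA2, another annexin, read 9.45 in BRD1-S cells, against 8.89 in untreated cells and 8.70, 8.55 and 9.01 on the mock arrays. S100A11 read 9.71 in BRD1-S cells, against 8.88 in untreated cells and 8.95, 8.93 and 9.93 on the mock arrays, so here the Dharmacon 2 array was highest. Of 34 measured BMP and TGF-beta genes none was called, where 0.143% of all genes were called higher and 0.0658% lower. ID1, a target of BMP signalling, read 9.05 in BRD1-S cells, against 8.78 in untreated cells and 7.96, 8.09 and 8.15 on the mock arrays, 0.27 beyond the range. Of the 41 measured matrix and mesenchymal genes, TNMD was called higher and SERPINF1 lower, beside 0.143% and 0.0658% of all genes. TIMP1, an inhibitor of matrix metalloproteases, stood 0.54 beyond the range with 8.60 in BRD1-S cells and 7.73 in untreated cells.

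The called genes lay on 20 chromosomes, and chromosome 8 held the most, 6 of the 38. It carried 5 of the 12 lower genes (MYC, NEFM, ZFPM2, ALKAL1 and MYOM2) and 1 of the 26 higher genes, CLU, and held 626 of 18176 placed genes (3.44%). This tally was made after the calls were seen and was not tested. Over the 332 genes of chromosome 8 at or above the median level, the median difference from untreated cells was −0.02. The closest pair in the order of measured genes was NEFM and CLU on chromosome 8, 17 steps apart, one lower and the other higher. Smaller shifts shared by neighbours were looked for as running medians over 21 consecutive genes among the 9160 placed genes at or above the median level. Of 8700 such windows, the lowest for BRD1-S cells minus untreated cells was on chromosome 18, from LAMA1 to CEP192, with a median of −0.29. In it 20 of 21 genes were lower in BRD1-S cells than in untreated cells, and 16 (76.2%) were below all 4 arrays, beside 38.1% of 139 such genes on the whole chromosome and 17.7% of all 9160. The same 21 genes had medians of −0.07, 0.01 and 0.01 on the mock arrays against untreated cells. Against the mock mean their median in BRD1-S cells was −0.20. By that measure the lowest window was on chromosome 3, from PRKAR2A to RNF123, with −0.22. Over the 139 genes of chromosome 18 the median against untreated cells was −0.12 in BRD1-S cells. On the mock arrays it was −0.09, −0.04 and −0.08, so those arrays were also under the untreated one.

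None of the 21 genes was called. LAMA1, a laminin chain, read 6.92 in BRD1-S cells, against 7.33 in untreated cells and 7.41, 7.55 and 7.56 on the mock arrays. PSMG2, a chaperone of proteasome assembly, read 10.66 in BRD1-S cells, against 10.95 in untreated cells and 11.09, 11.12 and 11.02 on the mock arrays. MTCL1 was the exception, with 7.62 in BRD1-S cells and 7.57 in untreated cells. The window was picked for its value out of 8700, and windows of the mock arrays minus untreated cells went as low as −0.31, −0.29 and −0.26 at other places in the genome.

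**Figure D5:**
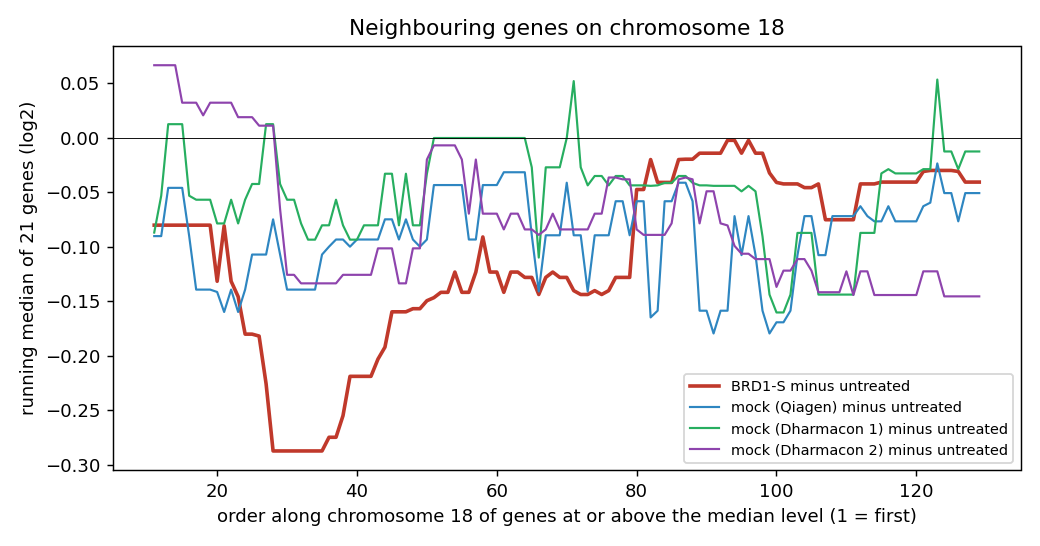
Running median over 21 genes of the difference from untreated cells (log2, vertical axis) along chromosome 18, by the order of genes at or above the median level (horizontal axis), for the BRD1-S array and the 3 mock arrays. The BRD1-S line dips to −0.29 near the start of the order, in windows centred on genes such as NAPG, and the mock lines do not reach that depth on this chromosome.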

How the data were processed

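The deposited values are log2 intensities of 49386 probe sets on 9 Affymetrix U219 arrays. The authors normalized probe intensities to the mean of the whole array, and the background correction and probe set summary are not given in the sources used here. Gene level was the mean log2 intensity of the 45259 probe sets with a single gene symbol in the platform annotation, giving 18239 genes. Left out were 2800 probe sets with no symbol and 1327 with several entries, among them entries that repeat 1 symbol. A gene was called at over 1.5-fold beyond all 4 arrays without the construct. Genes named in the text were BRD1, housekeeping genes, called genes, list members with large differences and the 8 largest differences each way lost to the mock arrays. Further genes were picked as examples, such as KAT7, VAMP3, BAG3 and NEFL, genes close to the threshold and genes of the chromosome 18 window. The members and the gene lists were chosen with earlier results of these data known. Promoters came from RefSeq (GRCh38.p14). The calling rule was run on simulated data with 200 planted differences of 1 or 2 log2 units. All 200 were recovered with 0 false calls. The simulated noise was smaller than the spread between the real arrays, so this checks the code only, not the error rate of the calls. Alternatives changed the scaling, threshold, reference arrays and probe set summary. Python 3.11.15, numpy 2.4.6 and pandas 2.3.3 were used.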

Additional observations from a re-analysis of the deposited data

Results flagged for a closer look

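Several wide shifts of the BRD1-S array, all smaller than that of BRD1 probe set 11748646_a_at at 4.55 beyond the range, were in probe sets that the gene level values left out, because the annotation lists several genes, or 1 symbol repeatedly, for each of them. For 3 probe sets shared by members of the GAGE family of X-linked cancer-testis antigens, BRD1-S cells lay beyond the range of the 4 arrays without the construct by −3.96, −2.48 and −1.99. The first of these read 3.93 in BRD1-S cells, against 7.96 in untreated cells and 9.03, 9.22 and 7.89 on the mock arrays, and it read 3.72 in BRD1-L cells. For 2 probe sets of the CT45A family, which is also X-linked and expressed in testis, BRD1-S cells lay 3.33 and 2.46 above the range. The first read 7.03 in BRD1-S cells, against 3.31 in untreated cells and 3.41, 3.71 and 3.28 on the mock arrays, and it read 3.26 in BRD1-L cells. A probe set of MAGEA3 and MAGEA6 lay beyond the range by −0.62, with 3.72 in BRD1-S cells, against 6.28 in untreated cells and 4.34, 4.67 and 7.04 on the mock arrays. Near-identical copies share most of these probes, so no single gene can be named for them. The first CT45A probe set is annotated to CT45A5 alone, with the symbol repeated, and was left out for that repeat. It lay farther beyond the range than TNMD, the first of the genes called higher. Of the other probe sets outside the gene level values, those of FRG2 family members, of MTCL3 with KIAA0408 and of RHCE with RHD lay 0.88, 0.87 and 0.80 above the range, and 2 with no symbol lay 0.61 above it.

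Called genes at which the other stably expressing line, BRD1-L, stood over 1.5-fold from untreated cells on the opposite side were LXN, CDO1 and SPINT2. For LXN the difference from untreated cells was −2.70 with the BRD1-S construct, against 0.89 with BRD1-L. For CDO1 the difference from untreated cells was −0.89 with the BRD1-S construct, against 1.42 with BRD1-L. For SPINT2 the difference from untreated cells was −1.01 with the BRD1-S construct, against 0.63 with BRD1-L. Each line had 1 array and both differences use the same untreated array, so the difference between the lines was not tested.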

How the results depend on the processing

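No paired analysis was possible because the BRD1-S and untreated cells had 1 array each and no test was run. Counts of called genes in BRD1-S cells depended most on the threshold and on the arrays they were set against. The 26 higher genes became 7 at 2-fold, 16 with only genes whose brighter side reached the median of all values, 14 with every probe set past the rule, 120 with over 1.5-fold from untreated cells and outside the range by any amount, and 177 against the untreated array alone. The 12 lower genes became 4, 24 and 30 at 2-fold, by any amount and against the untreated array, and 34 against the mock arrays alone. Leaving out 1 mock array gave 26 to 90 higher and 12 to 14 lower genes, with 90 when Dharmacon 2 was left out. Centring each array on its median kept 25 of the higher and all 12 lower genes, losing CCN1, and quantile normalization did the same. The median over probe sets gave 32 higher genes, 25 of them among the 26, without EPDR1, and the same 12 lower genes. These scalings shifted the median difference of all genes from untreated cells by −0.04 and −0.00. The BRD1 difference from untreated cells was 1.61 after centring, 0.85 with the median over probe sets and 1.48 against the mock mean. Of the 38 called genes, 5 moved by more than the SD of the mock arrays after centring, 1 after quantile normalization, 6 with the median over probe sets and 23 against the mock mean, and of the 33 list medians 17 moved so after centring, 2 after quantile normalization and 18 against the mock mean. No called gene changed direction under these 4 alternatives. The same scalings of the counts against untreated or mock arrays were chosen after seeing the data and stayed within 1.5 times. Without replicates or detection calls, levels under the median of all values are the least certain.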

Other observations

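On the siRNA arrays of the series, 4 of the 26 genes called higher in BRD1-S cells (ANXA1, HSPB8, RAB3C and BRD1 itself) stood below their own mock array by over 0.2 in every pair after BRD1 knockdown, and 0 of the 12 lower genes did, beside 155 of all 18239 genes (0.85%). BRD1 was the target of the siRNA, so its own fall was set by the design. Only falls were counted, and rises of the 26 higher or the 12 lower genes were not. The differences of siRNA from mock in the Qiagen, Dharmacon 1 and Dharmacon 2 pairs were −0.58, −0.53 and −0.40 for ANXA1, −0.36, −0.76 and −0.21 for HSPB8 and −0.71, −0.80 and −0.28 for RAB3C, beside −0.75, −0.84 and −0.998 for BRD1. The Dharmacon 2 pair thus had the lowest difference for BRD1 and, for ANXA1, HSPB8 and RAB3C, the one nearest to 0. TNMD and NELL2 did not share this, with −0.10, 0.05 and −0.29 for TNMD and 0.45, 0.28 and −0.05 for NELL2. Others of the 26 rose in the Qiagen and Dharmacon 1 pairs. The differences were 0.85, 0.36 and −0.02 for ISM1, 0.72, 0.51 and −0.10 for CRMP1 and 0.47, 0.70 and −0.27 for FBXL16. MIR7-3HG rose in every pair, with 0.20, 0.31 and 0.18. The mock arrays of these pairs also set the range used for the calls, so the values stand side by side only and are no separate support.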
